A study of Mus musculus with 13 samples.

Results

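Sorted intestinal stem cells (ISCs) that had lost Apc were compared between the duodenum and the ileum of adult mice. The comparison took 5 of the 13 RNA-seq libraries of the series, chosen by their titles and by no measured value. Of these, 3 libraries were duodenal ISCs of the genotype Lgr5eGFP-CreERT2;Apcfl/fl;Rosa26tdTomato, collected 14 days after induction and called ISC-Cre. The other 2 were ileal ISCs of the genotype Atoh1CreERT2;Apcfl/fl;Lgr5DTR-GFP;Rosa26tdTomato, collected at 21 days and called Sec-Cre. The first Cre follows Lgr5, an R-spondin receptor of crypt base stem cells, and the second by Atoh1, the transcription factor that commits cells to the secretory lineage. For reference, 2 libraries of ileal WT ISCs (Apcfl/fl;Lgr5DTR-GFP;Rosa26tdTomato, without Cre, at 21 days) entered the same fit. Organoids grown from ileal crypts taken 10 days after induction gave 2 libraries each of ISC-Cre (Lgr5eGFP-CreERT2;Apcfl/fl;Rosa26tdTomato), Sec-Cre (Atoh1CreERT2;Apcfl/fl;Rosa26tdTomato) and WT. Every group, WT included, received 2 doses of 1 mg tamoxifen, and every ISC group carried floxed Apc and the tdTomato reporter.

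The design sets limits on what the comparison can separate. Region, Cre driver, days after induction, Lgr5 reporter and library strandedness differ together between the duodenal and ileal groups, so their parts cannot be told apart. Per the labels, the samples named Lgr5_ApcKO were dissociated with TrypLE and the others with collagenase. No title holds that name, so dissociation may differ between the groups as well. Both Lgr5 reporters are known insertions into the Lgr5 gene, so Lgr5 was read from modified alleles in all 3 ISC groups. The shared extraction text names the duodenum alone, so the ileal origin rests on the cell type labels. No label says that replicates came from separate animals, so p-values measure only the spread between these samples. In bulk RNA, fewer cells of a type and less RNA per cell cannot be told apart.

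Apc is a scaffold of the complex that marks beta-catenin for destruction. When Apc is lost, beta-catenin accumulates, binds TCF/LEF factors at DNA and switches on Wnt target genes, among them feedback inhibitors of the pathway and genes of the crypt base. Along the small intestine the epithelium is regionally patterned, with iron, calcium and lipid uptake concentrated proximally and bile acid and vitamin B12 uptake distally, and the duodenum also holds mucus-secreting Brunner glands.

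The libraries differed in quality along with the groups. Total gene counts were 21580486 to 27336750 in the duodenal, 11524335 and 45516228 in the Sec-Cre and 15573041 and 18609373 in the WT ISC libraries. Unmapped reads were 3.22% to 5.84% of reads in the duodenal libraries, 57% and 35.8% in Sec-Cre replicates 1 and 2, and 13.9% and 5.01% in WT. In Sec-Cre replicate 1 the 10 most abundant genes held 51% of the counts, against 3.76% to 9.06% in the other 6 ISC libraries. Of gene reads, 98.5% to 98.9% fell on the second strand in the duodenal libraries and 49.6% to 51.1% in the ileal ones, so the former alone keep strand. The median difference between replicates was 0.58 on the log2 scale for Sec-Cre, 0.19 to 0.5 for duodenal and 0.16 for WT pairs. Xist, the RNA of the inactive X chromosome, stood at 0.764, 1115 and 859.7 CPM in the duodenal, 0 and 0.226 in the Sec-Cre and 615 and 650.2 CPM in the WT libraries, so the groups also differed in the sexes they held. CPM were computed with library sizes scaled by TMM over the 7 ISC libraries. The TMM factor was 0.387 in Sec-Cre replicate 1 and 0.975 in replicate 2, so CPM in replicate 1 stand well above shares of its counts.

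The duodenal and ileal Apc-null ISCs differed at a large share of genes. Of 14577 genes tested, 5950 (40.8%) were called at an adjusted p under 0.05 by the edgeR quasi-likelihood test, which gives all fold changes (± SE) and adjusted p-values below. In the duodenal ISCs 3060 genes (21%) were higher and 2890 (19.8%) lower, and the median log2 fold change of all genes was 0.12. When tested against a log2 fold change of 1, 2961 genes passed. In 9123 genes (62.6%) the 3 duodenal libraries lay wholly above or below both Sec-Cre libraries, and in 5514 (37.8%) they lay outside all 4 ileal libraries. Against ileal WT ISCs, 2783 genes (19.1%) were called in the duodenal ISCs, 1494 higher and 1289 lower (10.2% and 8.84%). The Sec-Cre ISCs differed from WT at 2417 genes (16.6%), 1403 higher and 1014 lower (9.62% and 6.96%). Both of these share the WT libraries and are given only side by side. Called genes also differed in length, with a median longest transcript of 4448 bases for those higher and 2276 bases for those lower in duodenal ISCs, against 3270 bases for all genes tested.

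**Figure D1:**
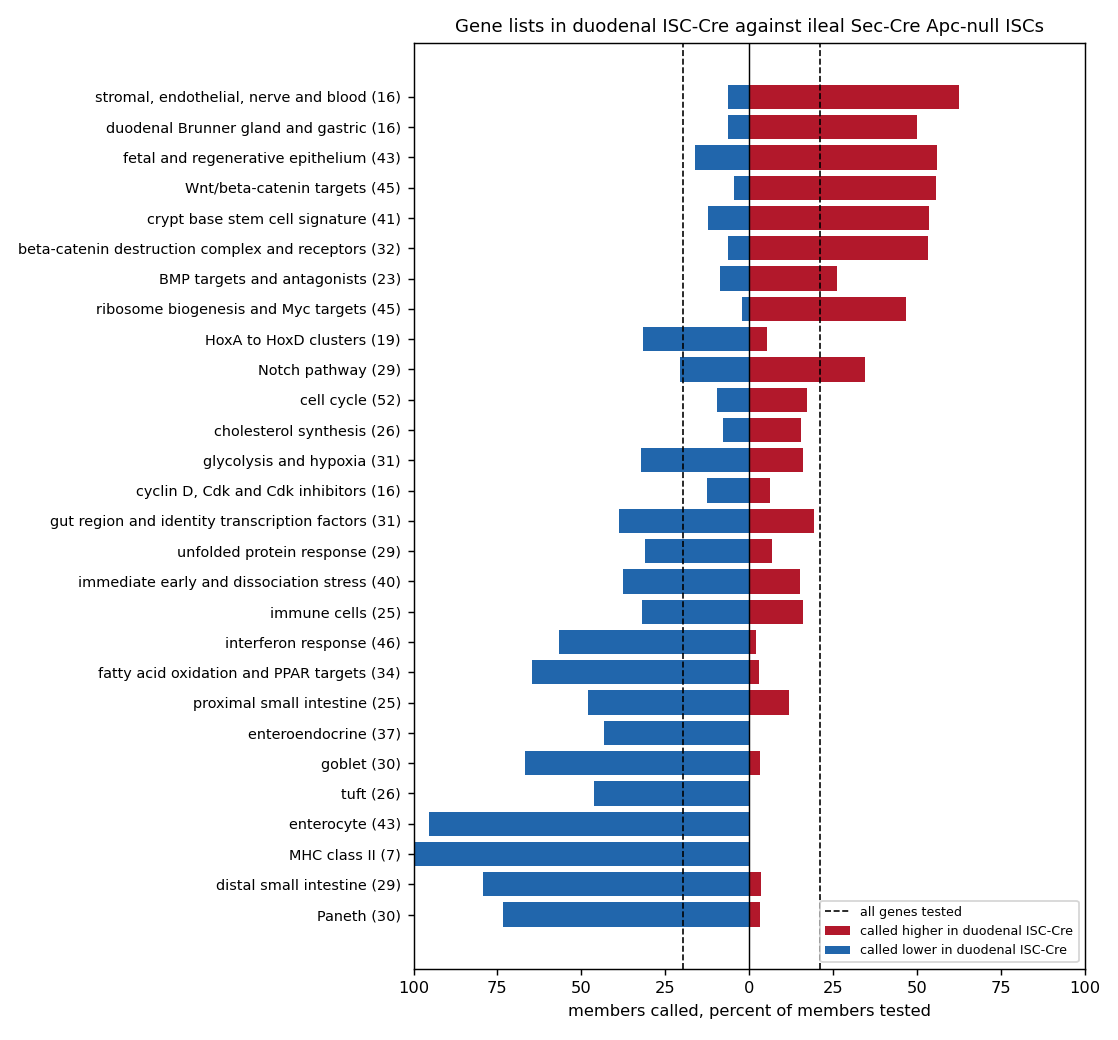
Share of the tested members of each gene list (number in brackets) called higher (right) or lower (left) in duodenal ISC-Cre than in ileal Sec-Cre Apc-null ISCs, in percent; dashed lines mark all genes (21% higher, 19.8% lower). Wnt target, stem cell, gastric and fetal lists reach beyond the line on the right, and enterocyte, distal and MHC class II lists on the left.

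The floxed gene Apc lies at chromosome 18, 34220924 to 34322552 (GRCm38, as for all gene positions here). Reads on Apc came to 218, 151 and 406 CPM (duodenal), 97.6 and 43.3 CPM (Sec-Cre) and 102 and 113 CPM (WT). The duodenal libraries all lay above the ileal ones, and the difference was called (1.88 ± 0.50, adjusted p = 0.018), but not without Sec-Cre replicate 2 (1.41, adjusted p = 0.0909) with a transcript length correction (0.64, adjusted p = 0.14) or against a log2 fold change of 1 (adjusted p = 0.0794). A floxed allele loses only part of the gene, so whole-gene counts do not check the deletion. Atoh1 (chromosome 6, 64729125 to 64731245) was lower in the duodenal libraries, at 4.38, 4.65 and 4.11 CPM against 43.3 and 29.5 CPM in Sec-Cre and 92.2 and 86.8 CPM in WT (-3.05 ± 0.28, adjusted p = 0.000203).

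Wnt/beta-catenin target genes were mostly higher in the duodenal Apc-null ISCs. Of 45 targets tested (of 53 fixed), 25 were called higher and 2 lower, or 21 to 30 higher over the alternatives, with a median log2 fold change of 1.71 against 0.12 for all genes. Beside the same WT libraries, 21 targets were higher and 2 lower in the duodenal ISCs, while 7 were higher and 6 lower in the Sec-Cre ISCs. Feedback inhibitors of the pathway were among them. Axin2, which rebuilds the destruction complex (chromosome 11, 108920349 to 108950783), was at 702, 620 and 657 CPM in the duodenal and 72.0 and 34.0 CPM in the Sec-Cre libraries (3.65 ± 0.41, adjusted p = 0.000454). The 2 WT libraries held 296 and 260.1 CPM, so Axin2 in the Sec-Cre libraries lay below WT (log2 fold change -2.40 ± 0.41, adjusted p = 0.00785), whereas the duodenal libraries lay above it (1.25 ± 0.37, adjusted p = 0.0455). Notum, a secreted enzyme that strips the lipid from Wnt ligands (chromosome 11, 120653788 to 120661175), was at 610.3, 687 and 419 CPM in the duodenal, 13.7 and 7.08 CPM in the Sec-Cre and 0.778 and 0.925 CPM in the WT libraries. Its 3 groups did not overlap, with Sec-Cre above WT (3.55 ± 0.47, adjusted p = 0.0039) and duodenal above Sec-Cre (5.83 ± 0.47, adjusted p = 0.000161).

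Further inhibitors and targets had the same order of duodenal above Sec-Cre. Nkd1, an intracellular inhibitor of Dishevelled, was at 939.5, 884 and 794 CPM in the duodenal and 39.0 and 9.99 CPM in the Sec-Cre libraries (5.19 ± 0.64, adjusted p = 0.000606). Both Sec-Cre values of Nkd1 lay far below the duodenal range. Rnf43, the ubiquitin ligase that removes Wnt receptors, was at 415, 417 and 298 against 54.7 and 75.1 CPM (2.53 ± 0.32, adjusted p = 0.000722). Prox1, a homeobox factor that Wnt signalling switches on in intestinal tumours (chromosome 1, 190118035 to 190170714), had the smallest adjusted p of the list. It was at 532, 356 and 607 CPM in the duodenal, 4.26 and 2.35 CPM in the Sec-Cre and 10.2 and 8.79 CPM in the WT libraries (7.34 ± 0.49, adjusted p = 0.000125), and both Sec-Cre libraries lay below WT (-1.62 ± 0.41, adjusted p = 0.0324). Cd44, a hyaluronan receptor of crypt cells, was at 211, 222 and 308 against 61.0 and 48.5 CPM (2.18 ± 0.31, adjusted p = 0.00112). The targets Myc, the growth-driving transcription factor (120, 129 and 84.6 against 119.8 and 216 CPM), and Sox9, a factor of crypt progenitors (168, 179 and 352 against 497 and 256 CPM), were not called (adjusted p = 0.178 and 0.206). Myc was called lower without Sec-Cre replicate 1 (-0.94, adjusted p = 0.0462), and Sox9 with library weights (-1.06, adjusted p = 0.0335) and without duodenal replicate 3 (-1.12, adjusted p = 0.0427). Cdx1, an intestinal homeobox factor on this list, was lower at 76.0, 105 and 57.2 against 393 and 630.3 CPM (-2.69 ± 0.35, adjusted p = 0.000785).

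The promoters of 3 called targets that hold the core TCF/LEF letters are shown because binding of beta-catenin with these factors is how the pathway reaches its targets. Each is the RefSeq window from 250 bases before to 50 bases after a start, on GRCm38.p6, 5′ to 3′ on the gene's strand, with the letters CTTTGA or their reverse complement TCAAAG in capitals. Tnfrsf19 is at chr14:61037938-61038237 (minus strand), the T gene (brachyury) at chr17:8434173-8434472 (plus strand) and Tiam1 at chr16:89818303-89818602 (minus strand).
Tnfrsf19: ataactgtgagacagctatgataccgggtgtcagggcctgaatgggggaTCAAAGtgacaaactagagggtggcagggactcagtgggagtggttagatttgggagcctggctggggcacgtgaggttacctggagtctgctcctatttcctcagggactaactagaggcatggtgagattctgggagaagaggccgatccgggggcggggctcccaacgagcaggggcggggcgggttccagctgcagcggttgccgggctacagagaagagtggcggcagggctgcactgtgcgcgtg
T: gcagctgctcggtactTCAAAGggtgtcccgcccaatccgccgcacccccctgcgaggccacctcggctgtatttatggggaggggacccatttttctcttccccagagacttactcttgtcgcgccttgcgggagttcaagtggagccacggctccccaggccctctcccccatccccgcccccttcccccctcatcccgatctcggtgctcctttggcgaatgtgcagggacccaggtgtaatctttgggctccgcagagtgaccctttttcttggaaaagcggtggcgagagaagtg
Tiam1: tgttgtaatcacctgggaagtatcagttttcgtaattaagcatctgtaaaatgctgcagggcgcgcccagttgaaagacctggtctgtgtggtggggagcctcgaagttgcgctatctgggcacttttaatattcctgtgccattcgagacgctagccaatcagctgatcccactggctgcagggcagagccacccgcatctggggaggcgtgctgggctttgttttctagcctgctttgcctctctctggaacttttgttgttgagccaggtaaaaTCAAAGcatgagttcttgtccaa
Counted from the start, the match begins at position -201 in Tnfrsf19, -234 in T and 28 in Tiam1. Among 28 targets with a window, 8 (28.6%) held the letters, as did 1578 of 10828 tested genes with a window (14.6%), 10 of 35 enterocyte genes (28.6%) and 7 of 20 distal genes (35%). The share was 13.4% among all genes called higher in duodenal ISCs and 15.7% among those called lower, near that of all tested genes. A gene counted if any of its windows matched, with 40 windows for the 28 targets and 13724 for the 10828 tested genes. A match to these letters is a description and not a binding site.

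The levels of those 3 genes differed as follows. Tnfrsf19, a TNF family receptor also called Troy, was at 327, 309 and 211 CPM in the duodenal and 12.8 and 12.5 CPM in the Sec-Cre libraries (4.48 ± 0.38, adjusted p = 0.000164). T, the mesoderm transcription factor brachyury, was at 9.67, 15.1 and 16.2 CPM in the duodenal and 0 and 0.0676 CPM in the Sec-Cre libraries, a ratio of 218 (95% counting interval 74.4 to 1058). Tiam1, an exchange factor for Rac, was at 81.3, 72.0 and 115 against 14.8 and 7.31 CPM (3.06 ± 0.40, adjusted p = 0.000819). WT libraries held 61.6 and 60.6 CPM of Tiam1, above Sec-Cre and below duodenal.

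Receptors, co-receptors and the destruction complex followed the targets. Of 32 genes tested (of 34 fixed), 17 were called higher and 2 lower, with a median log2 fold change of 1.18; the count of 17 was 11 with the transcript length correction. Lrp5, a co-receptor for Wnt ligands, was at 216, 256 and 319 CPM in the duodenal, 30.1 and 17.8 CPM in the Sec-Cre and 164 and 155 CPM in the WT libraries (3.48 ± 0.36, adjusted p = 0.000319). The Frizzled receptor gene Fzd6 was at 42.1, 33.9 and 60.4 against 5.61 and 3.29 CPM (3.41 ± 0.43, adjusted p = 0.000699). Ctnnb1, which encodes beta-catenin, was at 1358, 1400 and 1420 CPM in the duodenal, 339.9 and 467 CPM in the Sec-Cre and 913 and 884 CPM in the WT libraries (1.79 ± 0.35, adjusted p = 0.0048). The TCF/LEF family split. Tcf7 was higher at 83.5, 72.4 and 131 against 16.8 and 12.8 CPM (2.70 ± 0.38, adjusted p = 0.00113), and Tcf7l2 was lower at 33.8, 33.6 and 86.2 against 284 and 122.6 CPM (-1.99 ± 0.49, adjusted p = 0.0128), a call lost without Sec-Cre replicate 1 (-1.25, adjusted p = 0.0902) and against a log2 fold change of 1 (adjusted p = 0.0599).

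Stem cell genes were higher in the duodenal ISCs in most called cases, with Vdr, Clca2, Olfm4, Sectm1b and Cdx2 lower. Of 41 tested genes of the crypt base signature (of 42 fixed), 22 were called higher and 5 lower (15 to 25 and 4 to 5 over the alternatives), with a median log2 fold change of 1.4. Beside the same WT libraries, 13 were higher and 5 lower in the duodenal and 2 higher and 7 lower in the Sec-Cre ISCs. Lgr5 (chromosome 10, 115450311 to 115587780) was at 207, 203 and 222 CPM in the duodenal, 63.3 and 46.6 CPM in the Sec-Cre and 87.7 and 56.1 CPM in the WT libraries. The duodenal libraries lay above all 4 ileal ones (1.94 ± 0.31, adjusted p = 0.00186), and Sec-Cre did not differ from WT by the test (-0.39 ± 0.31, adjusted p = 0.414). Olfm4, a secreted glycoprotein of ISCs that depends on Notch, was at 63.8, 92.7 and 73.8 CPM in the duodenal, 275 and 1130 CPM in the Sec-Cre and 2697 and 3295 CPM in the WT libraries (-3.19 ± 0.56, adjusted p = 0.00305). Its groups were ordered WT, Sec-Cre, duodenal without overlap. Msi1, an RNA-binding protein of stem cells, was higher at 46.8, 46.7 and 52.9 against 8.75 and 4.33 CPM (2.96 ± 0.39, adjusted p = 0.000832), and Mex3a, which marks slow-cycling crypt progenitors, at 68.0, 62.0 and 39.2 against 6.51 and 1.83 CPM (3.92 ± 0.59, adjusted p = 0.00155). Igfbp4, a binding protein for insulin-like growth factors, was at 529, 709 and 679 against 122 and 127 CPM (2.36 ± 0.30, adjusted p = 0.000697). Among genes lower in the duodenal ISCs, Vdr, the vitamin D receptor, was at 38.0, 26.7 and 27.8 CPM against 390.4 and 644 CPM in Sec-Cre and 464 and 391 CPM in WT (-4.07 ± 0.34, adjusted p = 0.000164). Smoc2, a further ISC marker, was at 305, 463 and 217 against 168 and 196 CPM and was not called. It was called higher in 4 alternatives, among them DESeq2 (0.85, adjusted p = 0.0469). Ascl2, the master regulator of ISC identity, was at 26.9, 35.9 and 21.6 CPM in the duodenal and 11.4 and 49.0 CPM in the Sec-Cre libraries (adjusted p = 0.865). The Sec-Cre values of Ascl2 lay on either side of all duodenal ones, and without Sec-Cre replicate 2 it was called higher (1.3, adjusted p = 0.0389).

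**Figure D2:**
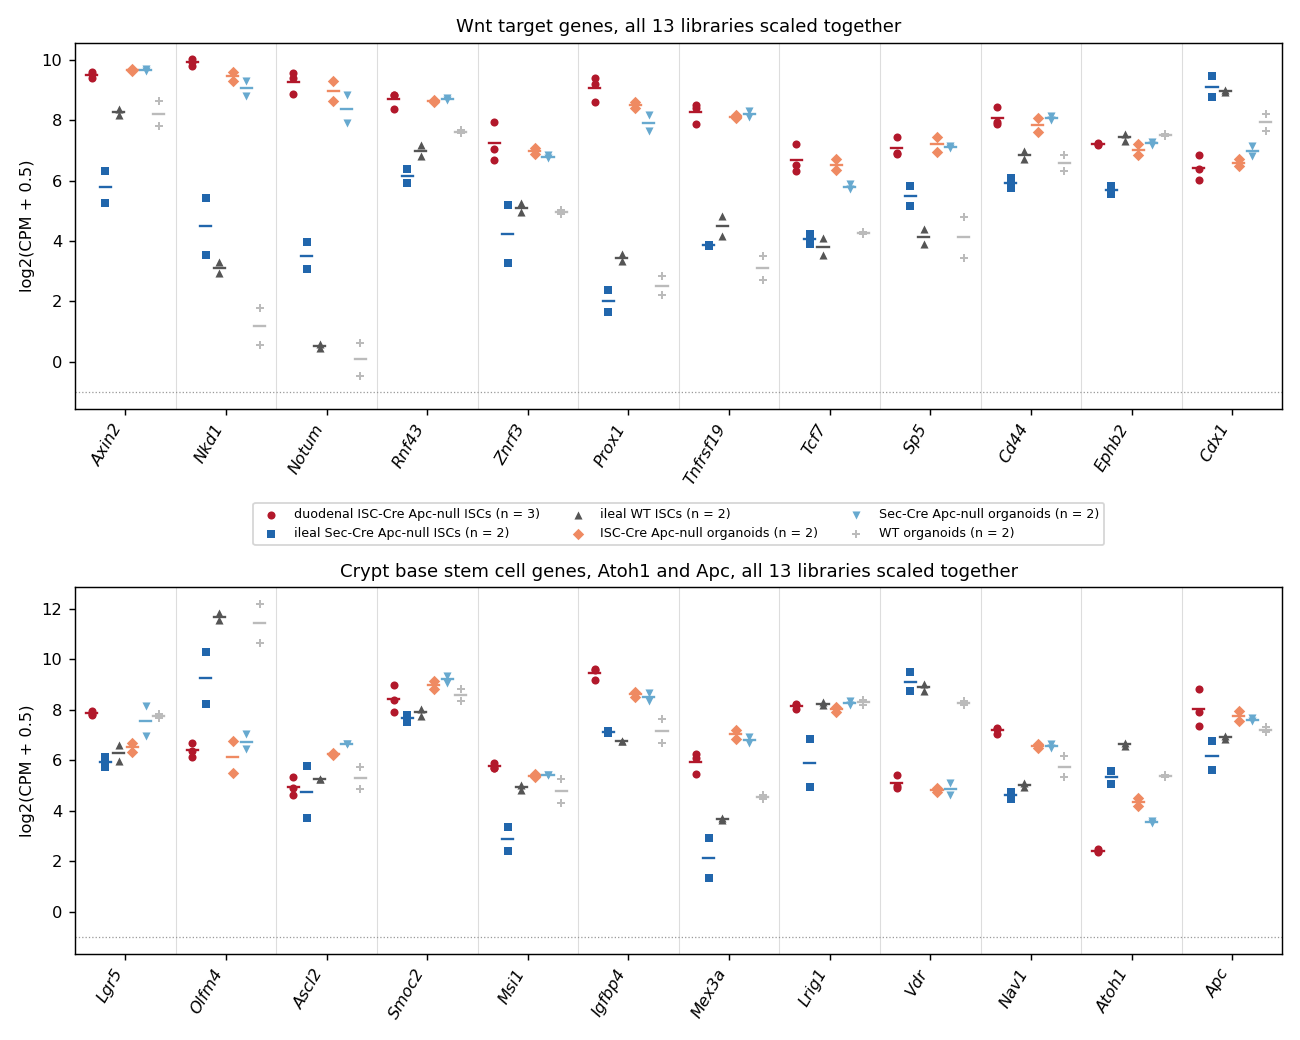
Levels of 12 Wnt targets (top) and of 10 crypt base genes, Atoh1 and Apc (bottom), as log2(CPM + 0.5) per library scaled over all 13 libraries; points are libraries, dashes group means and the dotted line a CPM of 0. Most Wnt targets in the duodenal ISCs sit near both Apc-null organoid groups, and the Sec-Cre ISCs sit below them.

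Several genes of gastric mucous cells and Brunner glands were higher in the duodenal Apc-null ISCs, with the gastric mucins near 0 in the ileal ISCs. Of 16 genes tested (of 18 fixed), 8 were called higher and 1 lower (7 to 10 and 1 to 2 over the alternatives), with a median log2 fold change of 2.78. Muc5ac, the secreted mucin of the gastric surface (chromosome 7, 141788972 to 141819231), was at 138, 57.9 and 163 CPM in the duodenal libraries and had no count in any of the 4 ileal ISC libraries, so it was at least 1850-fold higher than in Sec-Cre (adjusted p = 0.00032). Such bounds put the group at 3 counts over both Sec-Cre libraries pooled, which replicate 2 outweighs by depth. Muc6, the mucin of gastric and Brunner glands, lies nearby on the same chromosome (chromosome 7, 141633456 to 141655319). It was at 366, 351 and 1985 CPM in the duodenal and 2.24 and 1.47 CPM in the Sec-Cre libraries (9.02 ± 1.15, adjusted p = 0.000707), with duodenal replicate 3 the highest. Ctse, an aspartic protease of gastric mucosa, was at 280.4, 329.9 and 546 against 0.673 and 5.75 CPM (6.68 ± 0.78, adjusted p = 0.000498). Cldn18, a claudin of gastric tight junctions, was at 13.6, 13.1 and 15.2 against 0 and 0.0676 CPM, a ratio of 225 (95% counting interval 76.8 to 1093). In Ctse and Cldn18, as in the mucins, no Sec-Cre library reached the duodenal range. Bpifb1, a secreted defence protein, was at 15.1, 19.9 and 13.8 against 0 and 1.13 CPM (4.41 ± 0.88, adjusted p = 0.00677). The defining markers beside Muc6 were weaker. Tff2 was low throughout, at 1.68, 1.17 and 1.23 against 0 and 0.947 CPM, so Sec-Cre replicate 2 came close to the duodenal libraries. Gkn1 was at 10.1, 8.64 and 6.77 against 0.898 and 1.76 CPM, a call lost without duodenal replicate 1 (adjusted p = 0.07) or 2 (0.0564). Agr2, a disulfide isomerase of mucus cells, was the list member lower in duodenal ISCs, at 66.0, 140.2 and 97.7 against 1421 and 496 CPM (-3.24 ± 0.51, adjusted p = 0.00175). Pgc, the pepsinogen C gene, was at 21.7, 14.2 and 23.2 against 14.8 and 2.35 CPM and was not called (1.27 ± 0.75, adjusted p = 0.21), except with library weights (2.50, adjusted p = 0.0153) and without Sec-Cre replicate 1 (3.08, adjusted p = 0.0087). Of 5 exocrine pancreas genes tested (of 20 fixed), Cela1 and Pnliprp1 were called higher and Clps, Rnase1 and Iapp lower, with 0 to 2 higher and 0 to 3 lower over the alternatives. Without Sec-Cre replicate 1 the difference of Rnase1 was 0.02 (adjusted p = 0.974) and that of Clps -1.83, against -7.62 with it. The defining markers Cpa1 and Prss2 had no count and Pnlip at most 0.0846 CPM in the 7 ISC libraries.

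Fetal and regenerative epithelial genes were higher as well. Their list shares members with the gastric list, among them Muc5ac, Muc6 and Cldn18, so the counts of both lists overlap. Of 43 tested (of 53 fixed), 24 were called higher and 7 lower, with a median log2 fold change of 2.46. The count of 24 was 17 to 28 over the alternatives, and the count of 7 was 2 with the transcript length correction. Beside the same WT libraries, 23 genes were higher and 2 lower in the duodenal and 13 higher and 1 lower in the Sec-Cre ISCs. Clu, a secreted chaperone of revival stem cells (chromosome 14, 65968483 to 65981547), was at 1142, 1733 and 3149 CPM in the duodenal, 29.8 and 61.5 CPM in the Sec-Cre and 2.28 and 3.24 CPM in the WT libraries (5.45 ± 0.66, adjusted p = 0.000574). The order duodenal, Sec-Cre, WT held without overlap, and Sec-Cre was above WT by the test (4.05 ± 0.64, adjusted p = 0.00625). S100a6, a calcium-binding protein, was at 779, 983 and 372 against 39.0 and 50.2 CPM (3.99 ± 0.49, adjusted p = 0.000595). Anxa1, an annexin of injured epithelium, was at 52.6, 43.1 and 48.8 against 4.26 and 6.16 CPM (3.17 ± 0.53, adjusted p = 0.00231), and Il33, an alarmin cytokine, at 102, 123.3 and 72.6 against 12.8 and 18.1 CPM (2.67 ± 0.39, adjusted p = 0.0013). For S100a6, Anxa1 and Il33 every duodenal library lay above both Sec-Cre libraries. The YAP target Ankrd1 was at 3.94, 3.15 and 2.24 CPM in the duodenal libraries without a count in any ileal ISC library, at least 52.2-fold higher than Sec-Cre (adjusted p = 0.00471). The Reg genes, which encode secreted lectins, went the other way. Reg1 was at 24.9, 37.3 and 36.1 CPM against 1411 and 349.5 CPM in Sec-Cre (-4.75 ± 0.58, adjusted p = 0.000626) and Reg3g at 272, 769 and 1514 against 23060 and 4521 CPM (-4.02 ± 0.91, adjusted p = 0.00896).

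**Figure D3:**
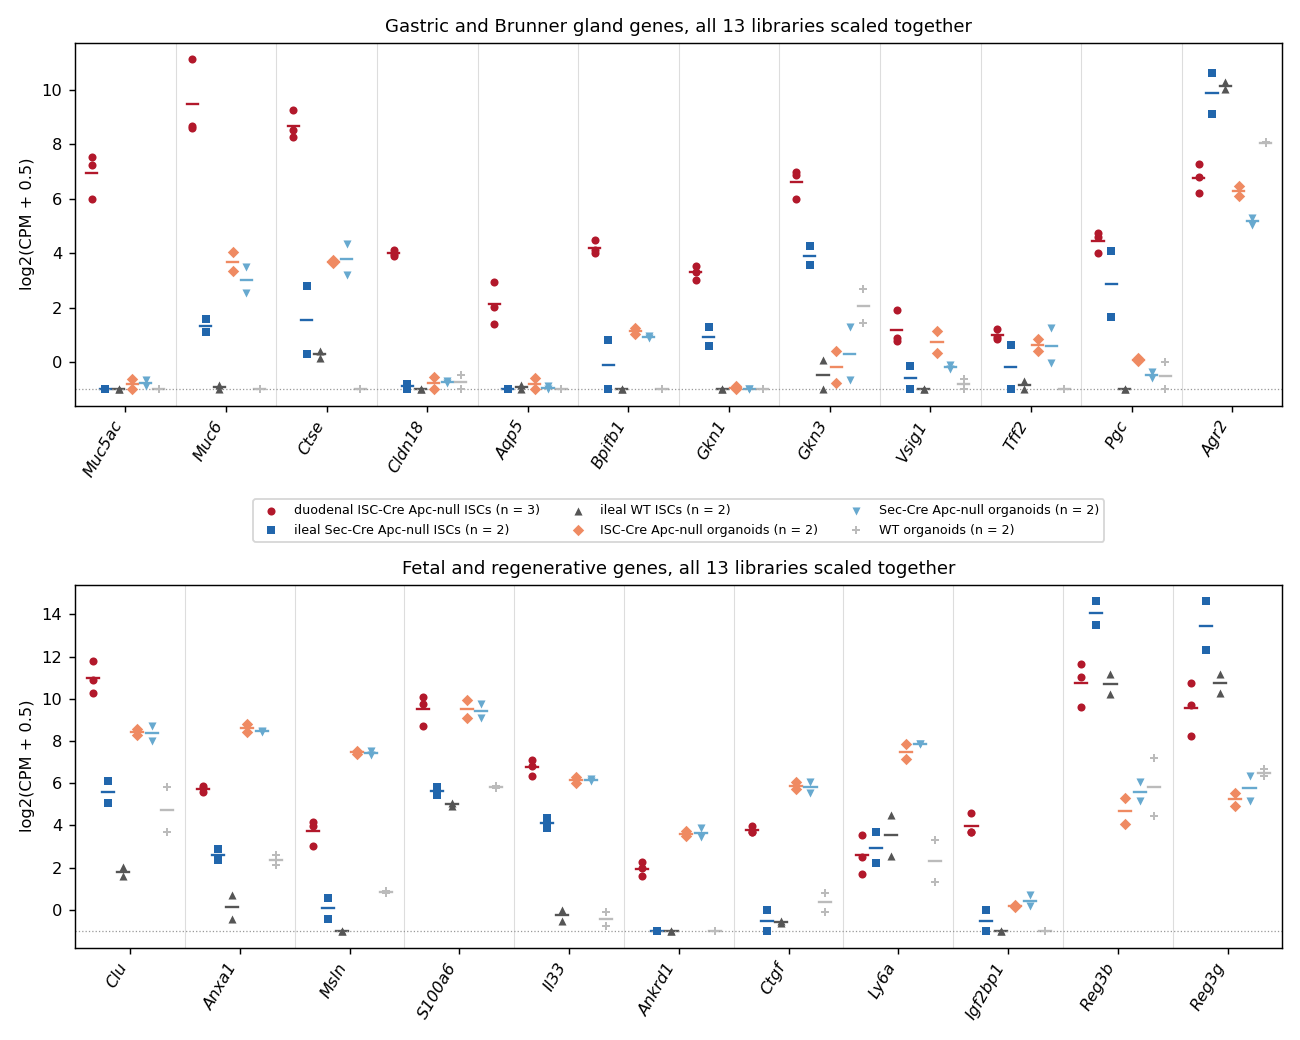
Levels of 12 gastric and Brunner gland genes (top) and 11 fetal and regenerative genes (bottom), as log2(CPM + 0.5) per library scaled over all 13 libraries; points are libraries, dashes group means and the dotted line a CPM of 0. Muc5ac, Cldn18 and Aqp5 are near 0 in every group but the duodenal ISCs, while Clu, Anxa1 and Msln are also high in both Apc-null organoid groups.

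Markers of the distal small intestine were lower in the duodenal ISCs. Of 29 tested (of 34 fixed), 23 were called lower and 1 higher (22 to 27 and 0 to 1 over the alternatives), with a median log2 fold change of -5.37. Fabp6, the ileal bile acid binding protein (chromosome 11, 43596049 to 43601540), was at 0.206, 0.167 and 0.127 CPM in the duodenal, 37.5 and 342 CPM in the Sec-Cre and 321 and 141 CPM in the WT libraries (-10.09 ± 1.03, adjusted p = 0.000292). Slc51a, a subunit of the bile acid exporter (chromosome 16, 32474504 to 32487879), was at 4.62, 2.34 and 1.40 CPM against 418 and 371 CPM in Sec-Cre and 63.9 and 55.4 CPM in WT (-7.13 ± 0.51, adjusted p = 0.000127). Amn, a subunit of the vitamin B12 receptor, was at 2.00, 1.59 and 1.02 against 125 and 190.5 CPM (-6.67 ± 0.38, adjusted p = 0.000125). For all 3 genes each duodenal library lay below all 4 ileal libraries. Plb1, a brush border phospholipase, was at 0.412, 0.223 and 0.127 against 96.2 and 66.97 CPM (-8.26 ± 0.53, adjusted p = 0.000125), and Fgf15, the ileal hormone that restrains bile acid synthesis, at 0.0294, 0.0836 and 0.212 against 2.92 and 13.2 CPM (-6.27 ± 0.98, adjusted p = 0.00177). Of the 29 genes, 16 were higher in Sec-Cre than in WT ISCs and 2 lower, and in the duodenal ISCs 2 were higher and 20 lower than the same WT libraries. Osr2, a transcription factor and not an absorptive protein, was at 4.56, 4.12 and 6.30 CPM in the duodenal, 102 and 187 CPM in the Sec-Cre and 112 and 83.5 CPM in the WT libraries (-4.86 ± 0.36, adjusted p = 0.000135).

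Promoters of 3 distal genes with GATA letters are shown because GATA factors are known to set the boundary between proximal and distal small intestine. The windows and strand are as above, with AGATAA or its reverse complement TTATCT in capitals. Ggt1 is at chr10:75563882-75564181, Slc7a9 at chr7:35448842-35449141 and Bcl2l15 at chr3:103832446-103832745, all on the plus strand.
Ggt1: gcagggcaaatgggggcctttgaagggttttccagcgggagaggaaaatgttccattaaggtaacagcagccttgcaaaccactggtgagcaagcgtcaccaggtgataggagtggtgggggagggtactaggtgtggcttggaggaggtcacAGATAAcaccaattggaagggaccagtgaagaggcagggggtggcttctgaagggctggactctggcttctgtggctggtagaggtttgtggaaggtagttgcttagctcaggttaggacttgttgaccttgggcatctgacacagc
Slc7a9: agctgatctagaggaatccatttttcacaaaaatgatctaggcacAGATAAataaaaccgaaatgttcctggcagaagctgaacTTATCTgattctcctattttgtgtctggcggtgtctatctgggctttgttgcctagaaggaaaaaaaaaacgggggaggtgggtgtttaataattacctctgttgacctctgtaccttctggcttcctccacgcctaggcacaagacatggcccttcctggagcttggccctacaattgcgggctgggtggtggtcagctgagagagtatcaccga
Bcl2l15: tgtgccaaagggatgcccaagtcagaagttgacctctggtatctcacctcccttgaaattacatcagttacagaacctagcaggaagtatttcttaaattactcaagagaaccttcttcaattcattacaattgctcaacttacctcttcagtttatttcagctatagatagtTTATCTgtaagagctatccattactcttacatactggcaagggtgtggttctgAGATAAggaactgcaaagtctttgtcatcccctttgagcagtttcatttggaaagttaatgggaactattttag
The matches begin at position -97 in Ggt1, -205 and -166 in Slc7a9, and -77 and -24 in Bcl2l15. Of 20 distal genes with a window, 8 (40%) held these letters, against 892 of 10828 tested genes (8.24%), 5 of 19 proximal genes (26.3%) and 6 of 35 enterocyte genes (17.1%). Among all genes called higher in duodenal ISCs the share was 7.84%, and among those called lower 9.98%. A gene counted if any of its windows matched, with 29 windows for the 20 distal genes and 13724 for the 10828 tested genes. As above, a match is a description and not a binding site. Ggt1, which degrades glutathione, was at 14.0, 8.08 and 5.25 CPM in the duodenal, 500.1 and 596 CPM in the Sec-Cre and 8.34 and 8.28 CPM in the WT libraries (-5.91 ± 0.44, adjusted p = 0.000135). The duodenal and WT levels of Ggt1 were alike in range, and Sec-Cre stood above both. Slc7a9, a cystine transporter subunit, was at 6.70, 4.65 and 2.29 (duodenal), 189 and 258 (Sec-Cre) and 26.6 and 30.9 CPM (WT) (-5.61 ± 0.45, adjusted p = 0.000159). Bcl2l15, a Bcl-2 family gene that shares over 20% of its 31-base words with other transcripts and is therefore uncertain, was at 2.09, 2.70 and 4.78 (duodenal), 91.8 and 96.6 (Sec-Cre) and 41.0 and 30.2 CPM (WT) (-4.89 ± 0.40, adjusted p = 0.000161).

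Markers of the proximal small intestine did not show the reverse. Of 25 tested (of 28 fixed), 3 were called higher and 12 lower in the duodenal ISCs, with a median log2 fold change of -1.76. Against WT, 12 were higher and 1 lower in the duodenal ISCs, and 15 were higher and none lower in the Sec-Cre ISCs. Adh6a, an alcohol dehydrogenase, was at 11.2, 25.8 and 22.0 CPM in the duodenal, 434 and 632 CPM in the Sec-Cre and 5.39 and 6.52 CPM in the WT libraries (-4.76 ± 0.41, adjusted p = 0.000169). Slc46a1, the intestinal folate transporter, was at 11.2, 8.83 and 4.87 (duodenal), 85.3 and 79.5 (Sec-Cre) and 7.56 and 5.92 CPM (WT) (-3.31 ± 0.38, adjusted p = 0.000477), and Lct, lactase, at 13.1, 3.31 and 0.719 (duodenal), 423 and 328 (Sec-Cre) and 3.33 and 2.59 CPM (WT) (-6.03 ± 0.95, adjusted p = 0.0018). In these 3 genes the duodenal libraries lay far below Sec-Cre, and in Slc46a1 and Lct their range included the WT values. Proximal transcription factors gave another pattern. Gata4, which represses distal genes in the proximal gut, was at 135, 117 and 168 CPM in the duodenal, 79.9 and 171 CPM in the Sec-Cre and 15.1 and 43.7 CPM in the WT libraries (duodenal minus Sec-Cre 0.15 ± 0.47, adjusted p = 0.822). Onecut2, a factor of the duodenum, was at 153, 104 and 203 (duodenal), 205 and 53.7 (Sec-Cre) and 0.667 and 1.62 CPM (WT) (0.25 ± 0.56, adjusted p = 0.742), and Pdx1, the pancreatic and duodenal homeobox factor, at 3.26, 3.18 and 5.84 (duodenal), 7.18 and 7.01 (Sec-Cre) and 0 and 0.74 CPM (WT) (-0.80 ± 0.92, adjusted p = 0.514). For each of them the Sec-Cre libraries, labelled ileal, lay above both WT libraries (Gata4 2.10 ± 0.54, adjusted p = 0.0332; Onecut2 6.79 ± 0.81, adjusted p = 0.00309; Pdx1 4.20 ± 1.19, adjusted p = 0.0436). Onecut3, a related factor, was at 2.53, 6.35 and 5.67 CPM in the duodenal libraries and had no count in Sec-Cre, at least 77.9-fold higher (adjusted p = 0.0021). The Sec-Cre libraries thus held both distal markers such as Fabp6 and proximal factors such as Onecut2.

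Position genes of the Hox clusters pattern the gut along its length. They were read at low levels, beside shares of 21% called higher and 19.8% lower for all genes. Of 19 tested (of 52 fixed), 1 was called higher and 6 lower, with a median log2 fold change of 0.64. The lower ones were Hoxd4 and the neighbours Hoxb5 to Hoxb9. Hoxb7 was at 0.0294, 0.0557 and 0 CPM in the duodenal, 2.24 and 5.82 CPM in the Sec-Cre and 14.3 and 8.79 CPM in the WT libraries, lower by a ratio of 171 (95% counting interval 58.0 to 836), with a log2 fold change of -5.93 without Sec-Cre replicate 2 and -6.85 with it. Hoxb6 was at 0.0588, 0.0557 and 0.127 (duodenal), 0.449 and 7.46 (Sec-Cre) and 36.9 and 11.2 CPM (WT) (-5.73 ± 1.08, adjusted p = 0.00413) and Hoxb9 at 0.0588, 0.0557 and 0 (duodenal), 0.224 and 11.5 (Sec-Cre) and 59.8 and 18.7 CPM (WT) (-7.09 ± 1.33, adjusted p = 0.00401). Without Sec-Cre replicate 2, which held most of these reads, 2 of the list were lower, and Hoxb6 (-2.47, adjusted p = 0.24) and Hoxb9 (-2.27, adjusted p = 0.452) lost their calls. In a fit of the 5 compared libraries alone 1 was lower, since Hoxb5, Hoxb6, Hoxb8, Hoxb9 and Hoxd4 did not pass its count filter. Hoxb8 and Hoxd4 had no count in any duodenal library, and neither was called with DESeq2 (adjusted p = 0.0545 and 0.0552) or library weights (0.122 and 0.107). Hoxd4 lost its call in most alternatives (adjusted p up to 0.151 with the replicate block). Hoxa9 was the higher member at 7.70, 7.94 and 6.56 against 0.673 and 0.0226 CPM (5.47 ± 1.52, adjusted p = 0.0207), a call lost without Sec-Cre replicate 2 (adjusted p = 0.0643) and without duodenal replicate 1 (0.0567) or 2 (0.0609). Among 31 tested factors of gut identity (of 34 fixed), 6 were called higher, or 3 without Sec-Cre replicate 2, and 12 lower (median -0.57). Sox17, a factor of endoderm, was at 226, 155 and 70.3 CPM in the duodenal and 0 and 3.38 CPM in the Sec-Cre libraries (6.08 ± 1.00, adjusted p = 0.00305). Hnf4g, a factor of enterocyte differentiation, was lower at 38.4, 24.5 and 19.7 against 477 and 432 CPM (-4.05 ± 0.34, adjusted p = 0.000164).

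**Figure D4:**
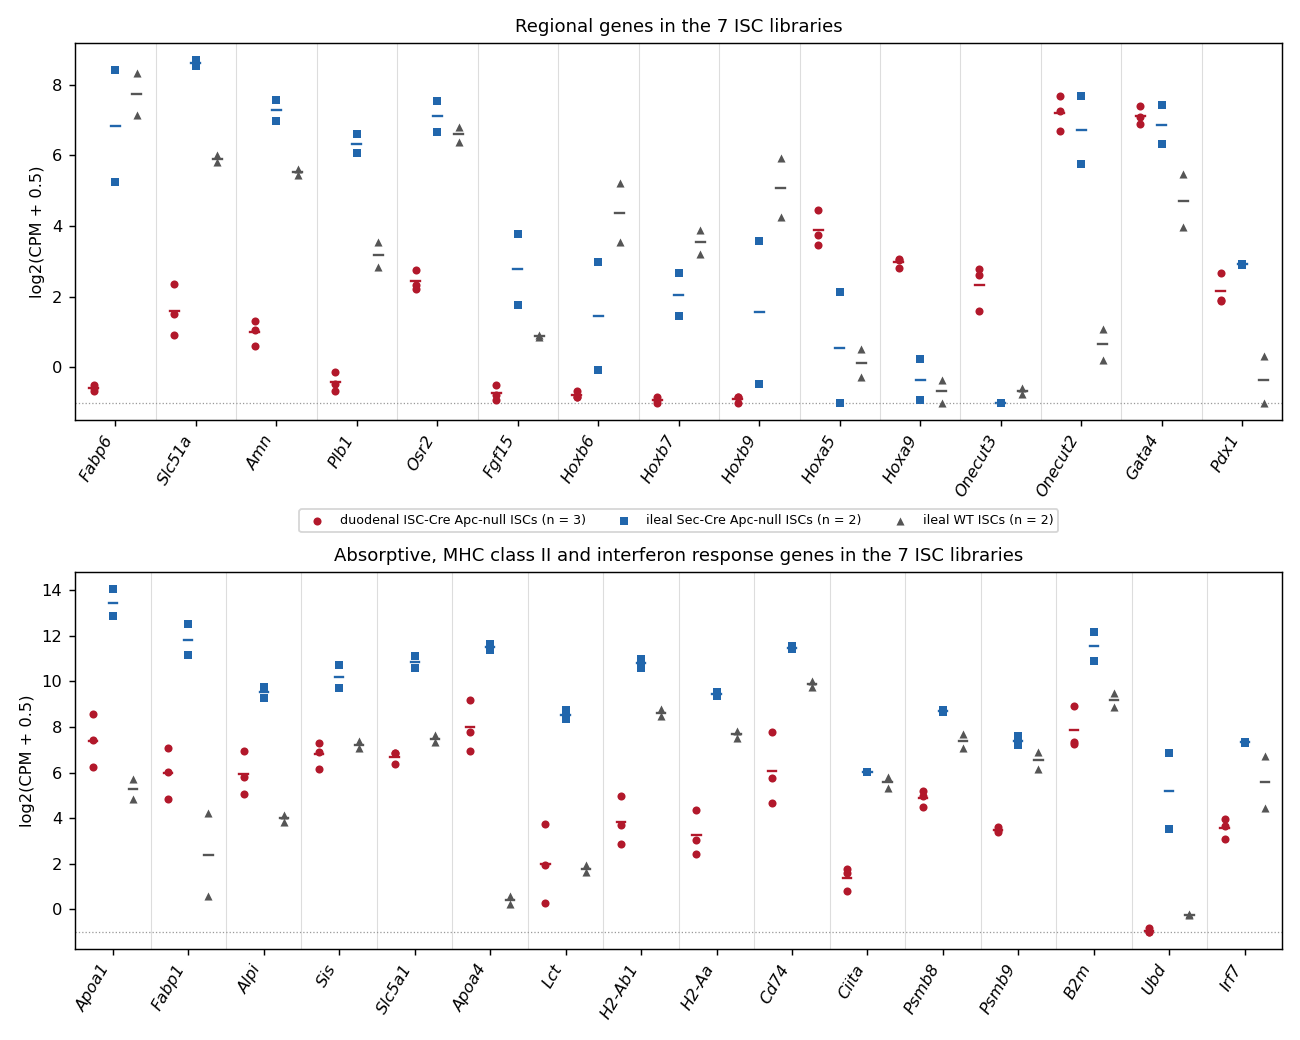
Levels of 15 regional genes (top) and 16 absorptive, MHC class II and interferon response genes (bottom) in the 7 ISC libraries, as log2(CPM + 0.5); points are libraries, dashes group means and the dotted line a CPM of 0. Distal markers are near 0 in the duodenal ISCs, and Onecut2, Gata4 and Pdx1 are at like levels in both Apc-null groups; the absorptive genes are highest in the Sec-Cre libraries.

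Genes of mature absorptive cells were lower in duodenal than in ileal Apc-null ISCs. Of 43 enterocyte genes tested (all that were fixed), 41 were called lower and none higher (38 to 42 lower over the alternatives), with a median log2 fold change of -4.48. Against WT, 8 were higher and 11 lower in the duodenal ISCs, while 39 were higher and none lower in the Sec-Cre ISCs. Their summed level was 5137 to 7142 CPM in the duodenal, 118700 and 54530 CPM in the Sec-Cre and 6475 and 8376 CPM in the WT libraries. As shares of unscaled counts these were 0.691% to 0.782%, 4.59% and 5.31%, and 0.748% and 0.973%. Apoa1, an apolipoprotein of lipid export (chromosome 9, 46228580 to 46230466), was at 374, 170.2 and 75.4 CPM in the duodenal, 16880 and 7367 CPM in the Sec-Cre and 52.2 and 28.0 CPM in the WT libraries (-5.88 ± 0.82, adjusted p = 0.00106). Alpi, the intestinal alkaline phosphatase, was at 122, 56.2 and 33.1 (duodenal), 618 and 872 (Sec-Cre) and 13.7 and 17.3 CPM (WT) (-3.40 ± 0.51, adjusted p = 0.00147). In both genes the Sec-Cre libraries stood above all others. Slc5a1, the sodium-coupled glucose transporter, was at 114, 82.6 and 114 against 1551 and 2238 CPM (-4.19 ± 0.35, adjusted p = 0.000164), and Mep1b, a brush border protease subunit, at 20.02, 13.6 and 7.07 against 584 and 576 CPM (-5.42 ± 0.44, adjusted p = 0.000161). Dgat1, which completes triglyceride synthesis, was at 53.5, 49.95 and 24.4 against 931 and 973 CPM (-4.48 ± 0.39, adjusted p = 0.000173). In the fatty acid oxidation and PPAR list, 22 of 34 tested genes (of 36 fixed) were called lower and 1 higher (median -1.74), among them Vnn1, a pantetheinase, at 1.68, 0.864 and 0.55 against 60.6 and 114 CPM (-6.39 ± 0.53, adjusted p = 0.000164). The part of enterocyte RNA in the other differences was not tested.

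Antigen presentation genes were lower in the duodenal ISCs. All 7 MHC class II genes tested (of 11 fixed) were called lower, in every alternative, with a median log2 fold change of -4.92 and no overlap with the 4 ileal libraries. Ciita, the coactivator that switches on MHC class II, was at 1.24, 2.54 and 2.96 CPM in the duodenal, 64.2 and 65.4 CPM in the Sec-Cre and 39.9 and 56.2 CPM in the WT libraries (-4.86 ± 0.41, adjusted p = 0.000169). H2-Ab1, a class II chain (chromosome 17, 34257689 to 34269419), was at 6.79, 12.6 and 31.02 CPM in the duodenal, 2040 and 1557 CPM in the Sec-Cre and 353 and 444 CPM in the WT libraries (-6.74 ± 0.66, adjusted p = 0.000252). Its duodenal values were spread, with replicate 3 the highest, and all lay below WT (-4.57 ± 0.61, adjusted p = 0.00189), whereas Sec-Cre against WT was not called (2.17 ± 0.65, adjusted p = 0.0515). H2-Aa was at 4.82, 7.86 and 20.2 against 745 and 659 CPM (-6.01 ± 0.60, adjusted p = 0.000259), and Cd74, the class II invariant chain, at 25.02, 53.9 and 216 against 2722 and 2964 CPM (-4.85 ± 0.82, adjusted p = 0.00262). Of 46 tested interferon response genes (of 48 fixed), 26 were called lower and 1 higher (18 to 29 and 0 to 2 over the alternatives; median -1.67). The immunoproteasome gene Psmb9 was at 9.996, 11.7 and 10.5 against 147 and 193 CPM (-3.99 ± 0.31, adjusted p = 0.000151), and Irf7, an interferon regulatory factor, at 14.9, 12.2 and 7.87 against 156 and 163 CPM (-3.77 ± 0.58, adjusted p = 0.0017).

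Immune cell markers went both ways, at low levels, beside 21% of all genes called higher and 19.8% lower. Of 25 tested (of 42 fixed), 8 were called lower, 4 higher and 13 not, and without Sec-Cre replicate 2 there were 2 of each. Ptprc, the leukocyte antigen CD45, was at 0.5, 0.39 and 1.48 CPM in the duodenal, 7.18 and 19.5 CPM in the Sec-Cre and 3.06 and 8.93 CPM in the WT libraries (-4.11 ± 0.81, adjusted p = 0.00491). Cd79a, a B cell marker, reached at most 0.501 CPM and Csf1r, a macrophage marker, at most 2.13 CPM in any ISC library. The T cell marker Cd3e was at 0.0882, 0.139 and 0.423 (duodenal), 2.92 and 2.68 (Sec-Cre) and 0.0556 and 0 CPM (WT). Both were highest in Sec-Cre, while WT lay above the duodenal libraries for Ptprc and not for Cd3e. The higher genes were Mcpt1, Mcpt2, Itgax and Cd68. Mcpt2, a mast cell protease, was at 3.32, 4.79 and 1.65 against 0 and 0.0226 CPM, and Cd68, a macrophage lysosomal protein, at 11.1, 14.0 and 18.2 against 6.28 and 2.89 CPM (1.71 ± 0.54, adjusted p = 0.0327). Itgax stayed at or under 0.338 CPM in the duodenal libraries, below WT. Their part in the MHC class II difference was not tested.

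Goblet cell genes were mostly lower in the duodenal ISCs, and fewer enteroendocrine and tuft cell genes passed the test. Of 30 goblet cell genes tested (of 31 fixed), 20 were called lower, or 12 without Sec-Cre replicate 1, and 1 higher (median -2.22). Zg16, a lectin of goblet granules, was at 32.9, 25.7 and 24.2 CPM in the duodenal, 1349 and 1099 CPM in the Sec-Cre and 1025 and 915 CPM in the WT libraries (-5.47 ± 0.35, adjusted p = 0.000125). Tff3, the goblet trefoil factor, was at 33.7, 31.2 and 19.97 (duodenal), 3656 and 882 (Sec-Cre) and 1101 and 1081 CPM (WT) (-6.32 ± 0.65, adjusted p = 0.000291). Duodenal levels of both lay below all 4 ileal libraries, and of the goblet list 21 genes were lower than WT in the duodenal ISCs and 6 in the Sec-Cre ISCs. The defining goblet marker Clca1 was at 18.8, 18.3 and 12.2 against 33.0 and 18.0 CPM and was not called (-0.62 ± 0.38, adjusted p = 0.215). Muc2 was at 94.3, 124 and 417 against 3214 and 574 CPM, a call lost without duodenal replicate 2 (adjusted p = 0.0561). Its difference was -1.42 without Sec-Cre replicate 1. Fcgbp was at 202, 135 and 246 against 574 and 1291 CPM. Of 37 enteroendocrine genes (of 40 fixed), 16 were called lower, none higher and 21 not (median -1.79). Chga, the granule protein chromogranin A, was at 6.26, 6.63 and 7.70 (duodenal), 60.1 and 69.0 (Sec-Cre) and 124 and 176 CPM (WT) (-3.23 ± 0.27, adjusted p = 0.000164), and Sct, secretin, at 1.82, 2.59 and 1.27 (duodenal), 59.5 and 38.4 (Sec-Cre) and 25.9 and 31.8 CPM (WT) (-4.67 ± 0.41, adjusted p = 0.000173). Of 26 tuft cell genes (of 30 fixed), 12 were called lower, none higher and 14 not (median -2.48), but 2 were lower without Sec-Cre replicate 2, 4 without duodenal replicate 2 or 3 and 7 with library weights.

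Paneth cell RNA was concentrated in a single library. Of 30 tested Paneth genes (of 34 fixed), 22 were called lower and 1 higher, and 10 were lower and 4 higher without Sec-Cre replicate 1, with 14 lower without duodenal replicate 3. The summed level of the list was 988800 CPM in Sec-Cre replicate 1 on the TMM scale, against 12890 CPM in replicate 2, 8439 to 13930 CPM in the duodenal and 24360 and 24700 CPM in the WT libraries. As a share of unscaled counts, the list held 38.2% in Sec-Cre replicate 1 and 1.26% in replicate 2. Its share was 1.05% to 1.83% in the duodenal and 2.81% and 2.87% in the WT libraries. Lyz1, lysozyme, was at 3511, 5822 and 3548 CPM in the duodenal and 257900 and 3899 CPM in the Sec-Cre libraries, and its difference was 0.16 without Sec-Cre replicate 1 (adjusted p = 0.782). Its call (-4.93 ± 1.44, adjusted p = 0.0253) was also lost without any single duodenal library (adjusted p = 0.074 to 0.091), in the fit of 5 libraries (0.0569) and with the length correction (0.052). Lyz1 and the defensins share over 20% of their 31-base words with other transcripts and are uncertain. Kit, a receptor of Paneth-like cells, was the member called higher (98.3, 78.9 and 97.2 against 41.5 and 30.2 CPM; 1.36 ± 0.27, adjusted p = 0.00525), except against a log2 fold change of 1 (adjusted p = 0.116). Mptx1, a pentraxin of Paneth cells and likewise uncertain, was at 0.265, 0.334 and 0.592 against 600.2 and 55.1 CPM (-9.71 ± 1.41, adjusted p = 0.00126). The part of Paneth RNA in the other differences was not tested. Leaving out the Paneth, histone, RNA quality and mitochondrial genes changed no call among the named genes it kept. That step drops genes from the fit and leaves the counts of all other genes as they were, so it cannot decide that part.

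Notch pathway genes, which hold crypt cells back from the secretory fate, went both ways, as did all genes (21% higher and 19.8% lower). Of 29 tested (all that were fixed), 10 were called higher and 6 lower, or 3 lower without Sec-Cre replicate 2 (median 0.57). The receptors Notch1 (75.1, 66.3 and 94.4 against 25.6 and 26.1 CPM; 1.60 ± 0.27, adjusted p = 0.00236) and Notch2 (65.1, 49.5 and 87.2 against 12.8 and 8.52 CPM; 2.68 ± 0.37, adjusted p = 0.000987) were higher. Both receptors were lower in Sec-Cre than in WT (Notch1 -1.83 ± 0.28, adjusted p = 0.00595; Notch2 -2.02 ± 0.37, adjusted p = 0.0105), and Notch1 lost its duodenal call with the transcript length correction (0.49). Dll1, a ligand of secretory precursors, was lower at 9.67, 12.3 and 10.4 CPM in the duodenal, 33.4 and 39.4 CPM in the Sec-Cre and 100.9 and 100 CPM in the WT libraries (-1.76 ± 0.25, adjusted p = 0.00121). The target Hey1 was at 4.23, 6.21 and 9.44 CPM without a count in Sec-Cre, at least 103-fold higher (adjusted p = 0.00345), while the target Hes1 was at 194, 202 and 96.7 against 112 and 124 CPM (0.48 ± 0.35, adjusted p = 0.301). Hes1 was called higher without duodenal replicate 3 (0.75, adjusted p = 0.0338) and with the length correction (1.33, adjusted p = 0.00979). Of 23 BMP pathway genes (of 30 fixed), 6 were called higher, or 3 without Sec-Cre replicate 2, and 2 lower. Bmp2, a ligand of differentiated epithelium, was lower at 3.47, 1.64 and 3.34 against 23.3 and 40.4 CPM (-3.51 ± 0.44, adjusted p = 0.000695), and the antagonist Fstl1 was higher at 51.0, 47.7 and 50.1 against 0.673 and 2.14 CPM (4.92 ± 0.71, adjusted p = 0.00125).

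Some ribosome biogenesis genes were higher, and cell cycle genes changed in both directions. Of 45 tested ribosome biogenesis genes and Myc targets (of 46 fixed), 21 were called higher and 1 lower, with a median of 0.79, while 23 were not called. The count of 21 was 11 without duodenal replicate 2 and 5 against a log2 fold change of 1. Against WT, none was higher in either group, 2 were lower in the duodenal and 10 in the Sec-Cre ISCs. Utp20, a factor of small subunit assembly, was at 77.9, 78.4 and 72.4 CPM in the duodenal, 16.6 and 18.5 CPM in the Sec-Cre and 89.8 and 88.9 CPM in the WT libraries (2.11 ± 0.25, adjusted p = 0.000514). Ncl, nucleolin, was at 1034, 1206 and 1628 (duodenal), 346 and 345 (Sec-Cre) and 779 and 742 CPM (WT) (1.90 ± 0.36, adjusted p = 0.00435), a call lost with the length correction (0.91, adjusted p = 0.0534). Of 52 cell cycle genes tested (all that were fixed), 9 were called higher and 5 lower (median 0.31), against 21% and 19.8% of all genes. Without Sec-Cre replicate 1 these counts were 3 and 11, and without replicate 2 they were 19 and 0. Mki67, the proliferation antigen, was at 214, 156 and 383 CPM in the duodenal, 68.9 and 81.1 CPM in the Sec-Cre and 553 and 571 CPM in the WT libraries (1.74 ± 0.41, adjusted p = 0.0108), a call lost with the length correction (0.52, adjusted p = 0.218) and against a log2 fold change of 1 (0.0668). No cell cycle gene was higher than WT in either Apc-null group, and 19 were lower in the duodenal and 21 in the Sec-Cre ISCs by edgeR. Among 16 cyclin D and Cdk inhibitor genes (of 17 fixed), 1 was called higher and 2 lower. The inhibitors Cdkn2b (5.23, 4.79 and 6.73 against 83.9 and 162 CPM; -4.46 ± 0.35, adjusted p = 0.000152) and Cdkn1a (51.5, 45.1 and 59.96 against 609.8 and 299 CPM; -3.12 ± 0.35, adjusted p = 0.000424) were the lower ones.

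Metabolic and stress lists were mixed, beside 21% of all genes called higher and 19.8% lower. Of 31 glycolysis and hypoxia genes (of 33 fixed) 5 were called higher and 10 lower, and of 26 cholesterol synthesis genes (all that were fixed) 4 higher and 2 lower, or 9 and 1 without Sec-Cre replicate 2. Scd2, a fatty acid desaturase, was at 684, 750.4 and 809.9 CPM in the duodenal, 39.7 and 66.99 CPM in the Sec-Cre and 467 and 503 CPM in the WT libraries (3.80 ± 0.38, adjusted p = 0.000257). Of 29 unfolded protein response genes 2 were called higher and 9 lower, with Xbp1, its transcription factor, at 100.9, 166 and 116 against 393 and 348 CPM (-1.54 ± 0.29, adjusted p = 0.00418), a call lost against a log2 fold change of 1. Of 40 immediate early and dissociation genes 6 were called higher and 15 lower. Egr3, an immediate early factor, was at 64.3, 47.3 and 19.8 CPM in the duodenal, 0.897 and 0.316 CPM in the Sec-Cre and 2.45 and 3.79 CPM in the WT libraries (6.61 ± 0.80, adjusted p = 0.000563). Among 53 tested replication histone genes (of 72 fixed), whose mRNAs lack a polyA tail, 35 were called lower and 1 higher, with 20 to 23 lower under the length correction, the replicate block or without duodenal replicate 1 or 2, and 19 of fewer genes tested at a minimum count of 50. Of 10 RNA quality genes 5 were called lower. In 31 of the 53 histone genes all duodenal libraries lay below the 4 ileal ones, and their summed level was 351 to 595 CPM in the duodenal, 949.5 and 907.5 CPM in the Sec-Cre and 590.1 and 539 CPM in the WT libraries. Lars2, a mitochondrial tRNA synthetase gene kept on the RNA quality list, was at 85.5, 149.8 and 765 CPM in the duodenal, 222400 and 17040 CPM in the Sec-Cre and 578 and 482 CPM in the WT libraries (-8.49 ± 1.59, adjusted p = 0.00401). Rn45s, the ribosomal RNA precursor, held 0.38%, 0.271% and 5.26% of counts in the duodenal, 10.4% and 2.05% in the Sec-Cre and 0.519% and 0.573% in the WT libraries. Whether the Lars2 counts reflect its mRNA was not tested. The part of RNA quality in the other differences was not tested.

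Genes used as markers of stromal and endothelial cells were higher in the duodenal ISCs, and the defining markers of those cells did not move together. Of 16 tested (of 32 fixed), 10 were called higher, or 6 with library weights, and 1 lower. Their median log2 fold change was 5.37, or 3.94 with genes absent from Sec-Cre set at their bound. Vim, the intermediate filament vimentin, was at 538, 481 and 273 CPM in the duodenal, 1.57 and 2.21 CPM in the Sec-Cre and 9.01 and 12.5 CPM in the WT libraries (7.75 ± 0.52, adjusted p = 0.000125). Cdh5, an endothelial cadherin, stood at 63.1, 57.9 and 126 against 0.224 and 0.113 CPM (9.28 ± 0.71, adjusted p = 0.000178), and Col4a2, a basement membrane collagen, at 32.6, 16.4 and 39.2 CPM without a count in Sec-Cre, at least 456-fold higher (adjusted p = 0.000511). Pecam1, which marks endothelium, was at 0.323, 0.501 and 0.338 CPM in the duodenal libraries, and Col1a1, the fibroblast collagen, at 0.0882, 17.6 and 0.0423 CPM. Pdgfra, a fibroblast receptor, was at 8.59, 5.10 and 6.14 CPM without a count in Sec-Cre. So Pecam1 was near 0, Cdh5 and Pdgfra were read in every duodenal library, and Col1a1 stood out in replicate 2. The part of stromal cells in these values was not tested. Vim, Cdh5 and Col4a2 were read in ISC-Cre organoids too, at 528 and 706, 23.1 and 10.5 and 43.4 and 73.0 CPM on the scale of all 13 libraries. Values of the Sec-Cre and WT organoids are not given here, so these reads are not shown to be particular to ISC-Cre.

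The genes with the largest rises were mostly absent from the Sec-Cre libraries. After Muc5ac they included Gbx2, a homeobox factor, at 35.9, 42.8 and 50.5 CPM (at least 688-fold higher, adjusted p = 0.000178). Irs1, the insulin receptor substrate, was at 35.0, 20.2 and 39.1 CPM and at least 493-fold higher (adjusted p = 0.000188), with 4.22 and 3.01 CPM in WT. Robo1, a Slit receptor, was at 151, 113 and 209.5 against 0.224 and 0 CPM, a ratio of 7378 (95% counting interval 1324 to 291400) that rests on 1 Sec-Cre count and the depth of replicate 2. Without that library its log2 fold change was 9.43, against 12.51 with it. Amotl1, a regulator of YAP at cell junctions, was at 261, 181 and 395 against 0.673 and 0 CPM, a ratio of 4293 (95% counting interval 1469 to 20820), and its log2 fold change was 8.69 without Sec-Cre replicate 2, against 11.73 with it. These genes were read in every duodenal library. H19, an imprinted RNA of fetal tissue, was at 10.7, 33.0 and 148 CPM and spread widely between duodenal libraries (at least 877-fold higher, adjusted p = 0.00664), and its call was lost with library weights (adjusted p = 0.179) and without Sec-Cre replicate 2 (0.0554). Among the largest falls beside the defensins, Ubd, a ubiquitin-like modifier induced by interferon, was at 0.0588, 0 and 0 against 114 and 11.2 CPM, lower by a ratio of 963 (95% counting interval 266 to 7964), and its log2 fold change was -8.77 without Sec-Cre replicate 1, against -11.22 with it. Enpp7, an intestinal sphingomyelinase, was at 1.15, 0.167 and 0.212 against 125 and 151 CPM (-8.04 ± 0.74, adjusted p = 0.000201), and Naaladl1, a peptidase of the ileum, at 3.29, 0.585 and 0.339 against 213 and 799.9 CPM (-8.47 ± 1.03, adjusted p = 0.000605). Sec61g, a subunit of the protein translocation channel needed by all cells, was at 0.235, 0.529 and 0.339 CPM in the duodenal libraries. It was at 356 and 83.2 CPM in Sec-Cre and 48.4 and 40.6 CPM in WT ISCs (-9.19 ± 0.71, adjusted p = 0.000151), and at 31.6 to 52.6 CPM in the organoids, and whether these counts reflect its RNA was not tested.

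The same pair of drivers was also compared where region and library type were shared. In ileal organoids, 6 of 14208 genes (0.0422%) were called between ISC-Cre and Sec-Cre by edgeR, all higher in ISC-Cre, and the organoids share no library with the ISC comparison. That fit had 2 libraries per group and 3 residual degrees of freedom, so genes not called may still differ. The median difference between these organoids was 0.13 for 44 Wnt targets, -0.07 for 43 enterocyte genes and 0.03 for 40 fetal genes on the log2 scale, leaving out genes without a count in a compared ISC group. Within those lists 40, 33 and 35 genes lay within a log2 fold change of 1. The 7 MHC class II genes spread further, from -2.62 to 1.84 with a median of 0.62, and 2 of them lay within 1. Axin2 was at 782 and 817 (ISC-Cre), 822 and 789 (Sec-Cre) and 222 and 393 CPM (WT), and Clu at 381 and 312 (ISC-Cre), 259 and 413 (Sec-Cre) and 12.4 and 55.5 CPM (WT). Muc5ac was at 0 and 0.143 (ISC-Cre) and 0.127 and 0.0394 CPM (Sec-Cre). Both Apc-null organoid groups were thus above WT for Axin2 and Clu and near 0 for Muc5ac.

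The difference between drivers was not the same in sorted ISCs and in organoids. A model of all 13 libraries called 4075 of 15208 genes (26.8%) for the difference of differences, 2206 higher and 1869 lower (14.5% and 12.3%). It was higher in ISCs for 20 Wnt targets of 45, 19 stem cell genes of 41 and 20 fetal genes of 43, with 1, 4 and 4 lower. It was lower for 29 of 43 enterocyte genes, 23 of 29 distal genes and 6 of 7 MHC class II genes, and none of those lists had a member higher. For Lgr5 the value was 3.09 ± 0.49, adjusted p = 0.00104. Organoid Lgr5 was 103 and 80.0 (ISC-Cre) and 124 and 281 CPM (Sec-Cre), the reverse order of the ISCs. The ISC-Cre organoids carry an Lgr5 reporter allele and the Sec-Cre organoids none by their labels, whereas both ISC groups carry one, so the part of the allele in these Lgr5 values cannot be told apart. Organoid Atoh1 was 22.1 and 17.9 (ISC-Cre) and 11.0 and 11.5 CPM (Sec-Cre), also opposite in order to the ISCs (-3.87 ± 0.34, adjusted p = 4.68e-05). Besides cell source, the ISC side holds the differences in region, days and library type, and Xist levels and Lgr5 reporters differ between libraries on both sides, so the parts of these in the 4075 genes cannot be told apart.

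**Figure D5:**
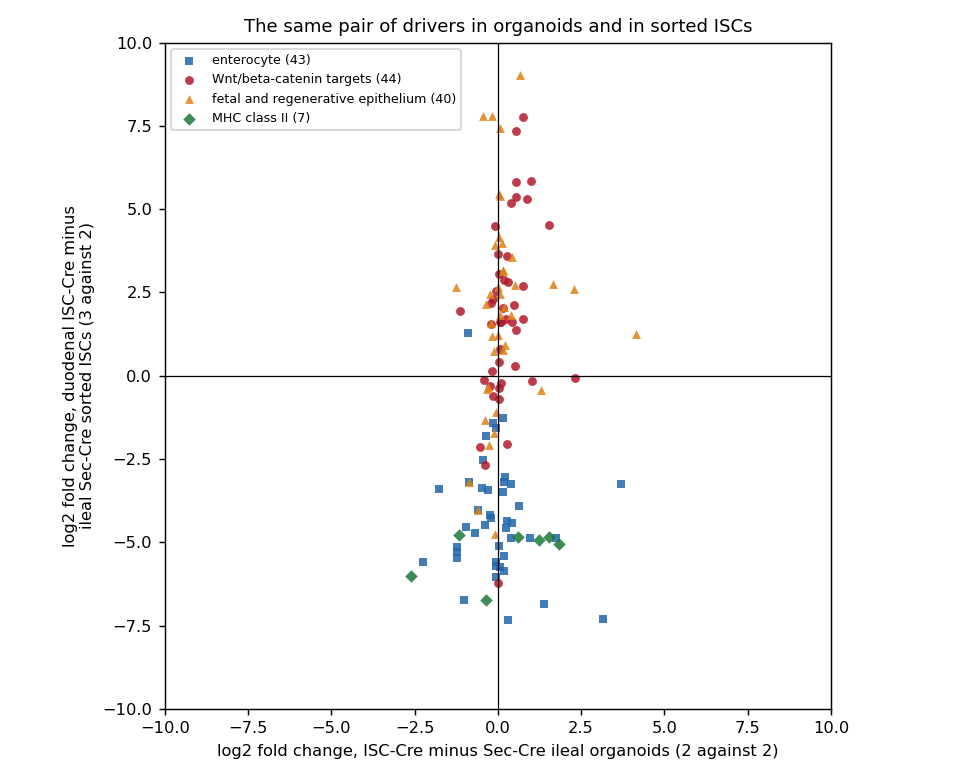
Log2 fold change of ISC-Cre over Sec-Cre in ileal organoids (x, 2 libraries each) against duodenal ISC-Cre over ileal Sec-Cre ISCs (y, 3 and 2 libraries) for 4 gene lists, leaving out genes without a count in a compared ISC group; points are genes. Enterocyte genes spread from -7.33 to 1.28 on the y axis and Wnt targets reach 7.76, while 33 of 43 and 40 of 44 lie within 1 of zero on the x axis. Of 7 MHC class II genes 2 lie within 1 on the x axis, where they spread from -2.62 to 1.84.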

How the data were processed

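The authors deposited read counts per gene for 13 mouse RNA-seq libraries, of which 5 were compared and 2 ileal WT libraries joined their fit. Per the submitters' processing notes, reads were aligned with STAR to mm10 and DESeq2 1.22.2 was used; the annotation is not given in the sources used here. Per the labels' protocols, a NEBNext non-directional kit was used, whereas the duodenal libraries are strand-specific. The deposited unstranded counts were used as they stand, without the mapping summary lines.

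Genes were filtered with filterByExpr (minimum count 10), scaled by TMM and tested with edgeR 4.0.16 (quasi-likelihood, R 4.3.3, Benjamini-Hochberg adjustment, prior count 0.125) in a fit of the 7 ISC libraries, with SEs derived from the F statistic. All 13 libraries gave the difference of differences. A gene was called at an adjusted p under 0.05. Against a group without counts, folds are bounds at 3 counts over the group, its libraries pooled, so for Sec-Cre they rest mostly on the depth of replicate 2, and intervals cover counting error only. Depth was 11524335 to 45516228 counts per ISC library. Scripts were tested on simulated data. Gene positions are from GENCODE on GRCm38 and promoter windows from RefSeq on GRCm38.p6. Figures used matplotlib 3.10.9.

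Alternatives were DESeq2 1.42.0, limma 3.58.1 voom with library weights, other scalings, filters and sample sets, a replicate block, a transcript length correction and a test against a log2 fold change of 1. By replicate number, deviations from the group means correlated at -0.12 and 0.067 for duodenal with Sec-Cre. Deviations of the 2 Sec-Cre libraries mirror each other, so these values cannot decide whether replicate numbers pair the samples. No label names a batch.

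The libraries, gene lists and tests were chosen with earlier results of these data known. Several lists share members, such as Axin2 and Lgr5 among the Wnt, receptor and stem cell lists, so their counts are not separate. Apc, Lgr5, Atoh1 and Axin2 were always named, with the 15 largest rises and falls among called genes of mean log2 CPM of at least 3 whose groups did not overlap, and the 4 members of smallest adjusted p in each list with at least 3 called. These genes were named outside that rule, after their values were seen: Agr2, Alpi, Ankrd1, Anxa1, Apoa1, Aqp5, Ascl2, Bcl2l15, Bpifb1, Cd44, Cd68, Cd74, Cela1, Cdx1, Cdx2, Ctnnb1, Fgf15, Gata4, Hes1, Hey1, Hoxa9, Hoxb8, Hoxd4, Igfbp4, Il33, Irf7, Itgax, Kit, Lct, Lyz1, Mcpt1, Mex3a, Msi1, Msln, Myc, Nkd1, Olfm4, Onecut2, Onecut3, Pdx1, Pgc, Reg1, Reg3g, Rnf43, Sectm1b, Slc46a1, Slc7a9, Smoc2, Sox17, Sox9, T, Tcf7l2, Tiam1, Xist and the defining markers of other cell types.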

Additional observations from a re-analysis of the deposited data

Results flagged for a closer look

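The ISC-Cre minus Sec-Cre difference was not the same in sorted ISCs as in organoids for 4075 genes, by the interaction term of the edgeR model over all 13 libraries. Values here are differences of differences on the log2 scale, positive where the excess of ISC-Cre was larger in ISCs. Among Wnt and stem cell genes it was 1.74 for Apc, 3.09 for Lgr5, 3.66 for Axin2, 6.82 for Prox1, 5.29 for Notum and 4.57 for Tnfrsf19. It was -3.87 for Atoh1. Among gastric and fetal genes it was 7.95 for Cldn18, 6.82 for Ctse, 8.39 for Muc6, 5.40 for Clu and 3.84 for S100a6. Among absorptive genes it was -5.61 for Mep1b, -3.95 for Slc5a1, -4.09 for Dgat1 and -5.67 for Xpnpep2, and among MHC class II genes -5.47 for Ciita, -6.38 for H2-Ab1 and -6.16 for H2-DMb1. H2-DMb1 shares over 20% of its 31-base words with other transcripts and is uncertain. Region, days after induction and library type also differ on the ISC side, dissociation may, and the sexes of the libraries differ on both sides. The Lgr5 reporters differ too, with none in the Sec-Cre organoids by their labels, which bears on the Lgr5 value. These parts cannot be told apart.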

How the results depend on the processing

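Of the 143 genes that the naming rule chose, all kept direction and call with DESeq2, RLE scaling, all 13 libraries, the sense strand column and without either WT library. Apart from Apc, Lgr5, Atoh1 and Axin2, these were picked for large changes or small adjusted p in these same data, so kept calls are no separate support. Calls were lost by 5 of the 143 with library weights, 1 without a count filter, 14 with the replicate block, 11 with the transcript length correction and 11 against a log2 fold change of 1. Without Sec-Cre replicate 2, 11 of 142 lost their call and 1 turned, without replicate 1 5 did and 1 turned, and without each duodenal library 4 did. The count of genes differing between the groups was 2961 against a log2 fold change of 1, 4507 with the replicate block, and 4091 to 5909 with a library left out. The count for the difference of differences ranged from 2323 to 4894 with a library left out; without 1 of the organoid libraries compared it was 2323, 2405, 2472 or 2627. With the replicate block it was 4132. The replicate numbers mark no known shared animal, litter or day. Another 82 genes, which the rule did not choose, were followed as well. Direction and call status stayed the same for 78 of the 82 with DESeq2 and for 74 with the replicate block (1 turned). They stayed the same for 72 with the transcript length correction (2 turned) and 73 without duodenal replicate 3 (3 turned).

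Directions turned for a few genes, and the cause was not tested. With a library left out, the log2 fold change ranged from -8.11 to 1.55 for Hoxb5, -5.57 to 0.02 for Rnase1, -0.78 to 1.3 for Ascl2, -0.41 to 1.53 for Onecut2, -0.28 to 0.82 for Gata4, -7.93 to 0 for Hoxb8, -5.03 to 0 for Hoxd4 and -5.9 to 0.16 for Lyz1. Ascl2 was 0.23 with the replicate block and 0.66 with the length correction, which put Onecut2 at -0.93. With the block, 5 Paneth, 3 tuft, 3 Hox and 3 immune genes were lower. Depth limits Sec-Cre replicate 1 most, where 3 counts are 0.673 CPM.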
